A study of Mus musculus with 2 samples.

Results

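Krüppel-like factors (Klfs) are transcription factors with a cluster of zinc fingers near the C-terminus that bind GC-rich and CACCC sequences in DNA. The 10 genes described here were chosen by name, as Klf2, Klf3, Klf4, Klf5, Klf6, Klf7, Klf9, Klf10, Klf13 and Klf16, and make up 10 of the 30774 gene identifiers on the array. They were measured in B6 mouse embryonic stem cells (mESCs), which the labels trace to the inner cell mass of E3.5 embryos. Both cultures were grown in serum medium with LIF, a cytokine that acts through Stat3. One of them also received CHIR99021 (CHIR), which inhibits the kinase GSK3 and thereby turns on Wnt/β-catenin signaling. The labels give 12 h for the treatment and 1 sample per condition, so LIF and LIF plus CHIR were each measured on 1 array. The concentration of CHIR for this experiment is not given in the sources used here, and the methods of the study name the 46C line where the labels name B6.

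In mESCs, Klf2, Klf4 and Klf5 bind many of the same regulatory regions as the core pluripotency factors and can replace one another in part in keeping the cells undifferentiated. Klf4 is a target of LIF–Stat3 signaling. Other members act mainly as repressors: Klf3 recruits CtBP corepressors, and Klf9, Klf10, Klf13 and Klf16 carry a region that binds the Sin3a corepressor. Klf6 and Klf7 form a branch of activators with similar N-terminal domains. The comparison asked which of these genes had a different signal once GSK3 was inhibited in cells that already received LIF.

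The quantity compared is the signal intensity of an Illumina beadchip, in arbitrary units after background subtraction. A signal was counted as above background from 51.9 upward in LIF and from 47.1 upward in LIF plus CHIR. These are the lowest signals with a detection p-value under 0.01 among identifiers that appear to have 1 probe. The ratio of LIF plus CHIR over LIF was taken as a log2 value, and a 1.5-fold difference, the limit used in the study, was taken as the threshold for a call. With 1 array per condition the spread between cultures was not measured, and no difference below has a replicate check or a p-value. Signals of different genes come from different probes and were not set against each other. In RNA from a whole culture, a lower signal from fewer expressing cells and one from less RNA per cell cannot be told apart.

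Of the 10 genes, 9 were above background on both arrays and Klf10 was below it on both. Of all 30774 identifiers, 10803 were above background on at least 1 array. Among the 7 other Klf genes looked up, 1 was above it, on 1 array only, so the count of 9 does not describe the whole family. Klf2 was 1.77-fold higher in LIF plus CHIR and Klf7 was 1.58-fold lower. The Klf7 call was lost under a background correction fitted on all identifiers (log2 ratio -0.15). It held when that correction was fitted on identifiers that appear to have 1 probe (log2 ratio -0.63). Klf4, 1.49-fold higher, lay just inside the limit. The other 6 differed by at most 1.21-fold. Across all 10803 identifiers above background on at least 1 array, 2.55% passed the limit as higher with CHIR, 2.88% passed it as lower, and 5.42% passed it in either direction. The 2 called genes make up 22.2% of the 9 measured, a share that rests on very few genes. By sign, 5 of the 9 were higher and 4 were lower. Their median log2 ratio was 0.17, and the median over all 10803 identifiers was -0.0029.

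**Figure D1:**
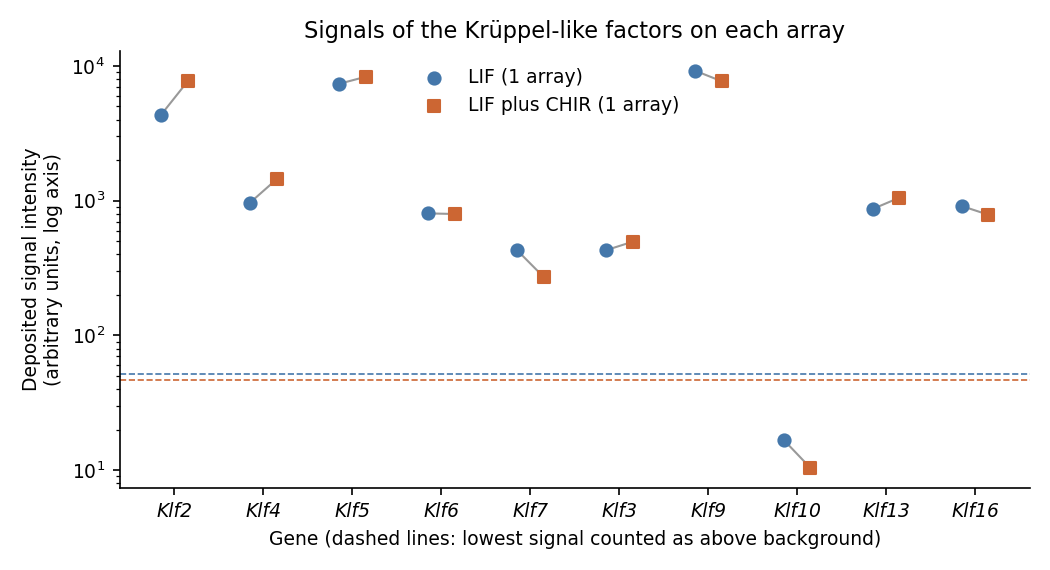
Signal intensity (log axis, arbitrary units) of each Klf gene on the LIF array (circles) and the LIF plus CHIR array (squares), with dashed lines at the lowest signals counted as above background. Klf2 and Klf4 have the steepest upward lines, Klf7 has the steepest downward line among the genes above background, and Klf10 lies below both dashed lines. Heights of different genes come from different probes and are not comparable.

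The DNA just upstream of Klf2, Klf4 and Klf7 is shown because these are the genes past the 1.5-fold limit or next to it. Each line gives the 250 bases before the annotated start site, 5′ to 3′ on the strand of the gene, from RefSeq in the build GRCm38.p6. Capitals mark the GC box GGGCGG and the CACCC box, the kinds of sequence that Klf proteins bind, on either strand.
Klf2 (chr8:72318812-72319061, plus strand): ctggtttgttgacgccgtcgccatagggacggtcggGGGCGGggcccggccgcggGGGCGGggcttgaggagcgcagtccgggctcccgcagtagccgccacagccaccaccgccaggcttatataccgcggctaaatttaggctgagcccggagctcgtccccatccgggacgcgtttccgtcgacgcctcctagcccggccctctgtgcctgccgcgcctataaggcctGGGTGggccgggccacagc
Klf4 (chr4:55532476-55532725, minus strand): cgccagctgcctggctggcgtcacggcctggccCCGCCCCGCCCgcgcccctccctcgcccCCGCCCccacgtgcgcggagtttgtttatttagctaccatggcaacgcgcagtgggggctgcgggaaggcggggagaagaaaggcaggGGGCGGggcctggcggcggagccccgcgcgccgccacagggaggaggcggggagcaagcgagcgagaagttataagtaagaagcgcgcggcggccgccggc
Klf7 (chr1:64121390-64121639, minus strand): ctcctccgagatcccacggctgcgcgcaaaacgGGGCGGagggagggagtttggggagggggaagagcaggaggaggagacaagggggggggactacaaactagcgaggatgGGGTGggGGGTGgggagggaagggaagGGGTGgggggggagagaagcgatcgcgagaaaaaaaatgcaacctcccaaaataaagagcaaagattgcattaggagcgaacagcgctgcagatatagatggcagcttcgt

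The GC box occurred 2 times in the window of Klf2, 4 times in that of Klf4 and 1 time in that of Klf7. The CACCC box occurred 1 time, 0 times and 3 times, respectively. In Klf4, a pair of GC boxes on the opposite strand overlap by a base. RefSeq windows were matched for 7 of the 10 genes (Klf2, Klf3, Klf4, Klf6, Klf7, Klf9 and Klf13). A GC box was present in 6 of these 7, all but Klf9, and in 32.7% of 32851 windows of the same length. A CACCC box was present in 5 of the 7 and in 52% of all windows. The windows of the 7 genes had a GC content of 59.2% to 78.4%, against a median of 52.4% over all windows. CTTTGAT, a core sequence bound by Tcf/Lef factors, was in 0 of the 7 windows and in 3.21% of all, and TTCNNNGAA, a Stat site, was in 1 (Klf9) and in 7.02% of all. A match describes the letters in this window and does not show binding.

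Among the factors of the pluripotency network, Klf2 (Entrez gene 16598, chromosome 8) had a signal of 4332 in LIF and 7689 in LIF plus CHIR. The signal with CHIR was thus 1.77-fold higher, a log2 ratio of 0.83. Klf2 is a member of the naive network whose transcript is low in epiblast stem cells. Of 3547 identifiers whose brighter signal was 1000 or more, 1.27% passed the limit as higher and 0.93% as lower. In this class 19 identifiers (0.536%), Klf2 among them, had a ratio as high as that of Klf2 or higher. Klf4 (Entrez gene 16600, chromosome 4), which is also one of the factors used to reprogram somatic cells, had a signal of 966 in LIF and 1444 in LIF plus CHIR. Its log2 ratio was 0.58, and 46 of the 3547 (1.3%) had a ratio as high or higher. The 1.5-fold limit corresponds to a log2 ratio of 0.585, and the ratio of Klf4 was 0.5801.

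Klf5 (Entrez gene 12224, chromosome 14), a factor that supports proliferation of mESCs and the inner cell mass, had a signal of 7356 in LIF and 8295 in LIF plus CHIR. The log2 ratio was 0.17, and 466 of the 3547 bright identifiers (13.1%) had a ratio as high or higher. Klf2, Klf4 and Klf5 were thus all brighter on the LIF plus CHIR array, and only Klf2 passed the limit. The detection p-values of Klf5 were 0.272 in LIF and 0.486 in LIF plus CHIR, although its signals were far above the minimum. Such values are not particular to Klf5: of 3335 identifiers with a signal of 1000 or more on both arrays, 219 had a detection p-value of 0.05 or more on at least 1 array. Of the 219, 0 had the p-values of a single probe, which move in whole steps of 1 over 936, the number taken for the negative controls. How the probes of 1 identifier were combined is not stated.

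In the activator branch, Klf7 had a signal of 430 in LIF and 272 in LIF plus CHIR. It was therefore 1.58-fold lower with CHIR, a log2 ratio of -0.66. Under a normexp background correction fitted on all identifiers the log2 ratio was -0.15, and the call was lost. Fitted on identifiers that appear to have 1 probe, the same correction gave -0.63, and the call held. Klf7 is known for its role in the development of neurons. Of 3674 identifiers with a brighter signal from 200 to below 1000, 2.91% passed the limit as higher and 2.86% as lower. In this class 87 identifiers (2.37%), Klf7 included, had a ratio as low or lower. The entry of Klf7, like that of Klf3, carries a gene name but no Entrez number, definition or map position on this array, so its target rests on the name alone. Klf6 (Entrez gene 23849, chromosome 13), an early response gene in many cell types, had nearly equal signals of 805 in LIF and 796 in LIF plus CHIR. Its log2 ratio was -0.02, and its detection p-values of 0.462 and 0.112 were again high for its signal.

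**Figure D2:**
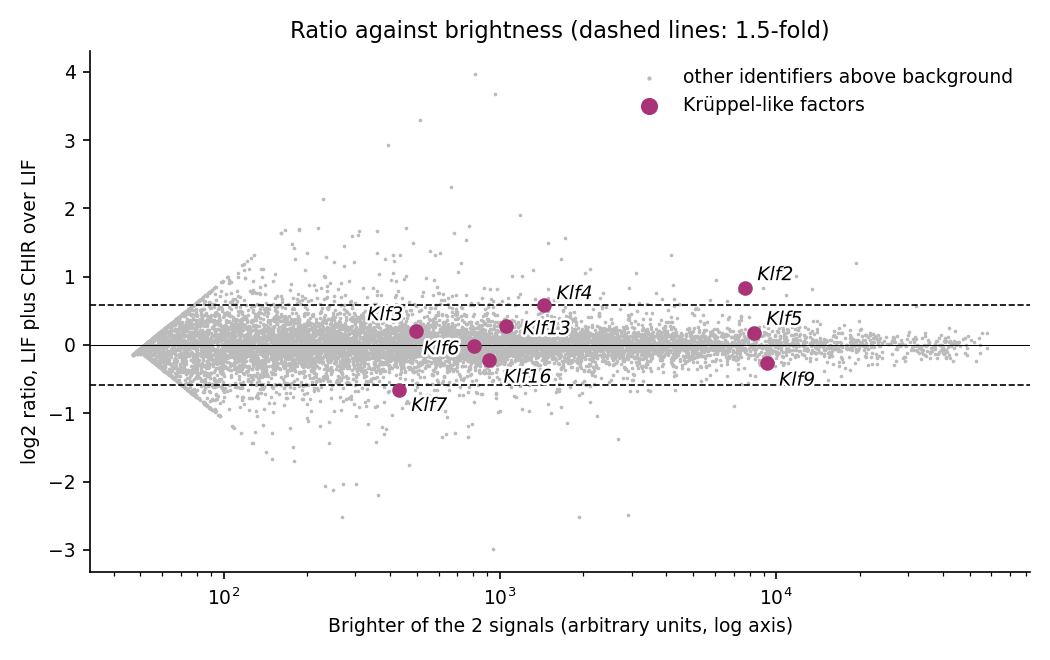
The log2 ratio of LIF plus CHIR over LIF against the brighter of the 2 signals (log axis) for the identifiers above background, with the 9 measured Klf genes named and dashed lines at 1.5-fold. Klf2 (0.83) stands above the upper line, Klf4 (0.58) touches it, and Klf7 (-0.66) lies below the lower line, where other identifiers of similar brightness are more frequent than around Klf2.

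The 4 repressors above background all lay inside the limit, 2 with the higher and 2 with the lower signal in LIF plus CHIR. Klf3 had a signal of 429 in LIF and 496 in LIF plus CHIR, a log2 ratio of 0.21. Among the 3674 identifiers of its class, 643 (17.5%) had a ratio as high or higher. Klf8 and Klf12, the other members that recruit CtBP, were not above background on either array.

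Of the genes whose products bind Sin3a, Klf9 (Entrez gene 16601, chromosome 19) had a signal of 9219 in LIF and 7701 in LIF plus CHIR. Its log2 ratio was -0.26, and 224 of the 3547 bright identifiers (6.32%) had a ratio as low or lower. Klf16 (Entrez gene 118445, chromosome 10), first described as a regulator of dopamine receptor genes, also had the lower signal with CHIR. Its signals were 913 in LIF and 786 in LIF plus CHIR, a log2 ratio of -0.22. Klf13 (Entrez gene 50794, chromosome 7), known from T cells and the heart, differed the other way. It had signals of 868 in LIF and 1052 with CHIR, a log2 ratio of 0.28, and 184 of the 3547 bright identifiers (5.19%) had a ratio as high or higher. Klf10 (Entrez gene 21847, chromosome 15), a gene induced early by TGFβ, had signals of 16.8 in LIF and 10.4 in LIF plus CHIR, both below the minimum, and was given no ratio. Klf11 and Klf14, further members of this branch, were not above background on either array.

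Old gene names on the array gave a second reading for a few members. RefSeq lists 9430029L20Rik as a synonym of Klf13, and this identifier had a signal of 359 in LIF and 457 in LIF plus CHIR. Its log2 ratio of 0.35 had the sign of the Klf13 entry (0.28), and both lay inside the limit. Tieg, a synonym of Klf10, was at -6.62 in LIF and -8.69 in LIF plus CHIR, so that neither identifier of this gene was above background. For Klf9, the synonym 2310051E17Rik had signals of 31.6 and 21.4, below the minimum on both arrays, where the entry named Klf9 was bright. It therefore gave no second ratio.

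The array held the 7 other Klf genes that were looked up. Klf8, Klf11, Klf12, Klf14, Klf15 and Klf17 were below the minimum on both arrays. Klf1, the erythroid member, had a signal of 49.4 in LIF and 49.7 in LIF plus CHIR, on either side of the minimum of its array without a difference between the signals. For Klf17, an oocyte and early embryo gene, a second identifier under its old name Zfp393 had a signal of 74.0 in LIF and 38.7 in LIF plus CHIR. Only the first was above the minimum, and against that of the LIF plus CHIR array Zfp393 was at least 1.57-fold lower, while the entry named Klf17 stood at 27.3 and 27.4.

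The related Sp factors share the zinc finger type and the GC-box sequence. Of 9 on the array, 4 were above background on at least 1 array, 1 was at least 1.5-fold higher and 0 were lower, with a median log2 ratio of 0.16. The higher one was Sp5, which the study describes as a direct target of both β-catenin and LIF–Stat3 signaling. It had a signal of 48.8 in LIF and 810 in LIF plus CHIR. Its LIF signal was under the minimum, which makes Sp5 at least 15.6-fold higher. Among genes of the pluripotency network whose regulatory regions Klf2, Klf4 and Klf5 bind, 10 of 12 were above background, 2 were higher and 0 were lower, with a median of 0.22. The higher ones were Tbx3, with 177 in LIF and 414 in LIF plus CHIR (log2 ratio 1.23), and Tfcp2l1, on the array as Tcfcp2l1, with 7658 and 13485 (log2 ratio 0.82). Nanog, with 1660 and 2429, lay just inside the limit (log2 ratio 0.55), as Klf4 did. Over all identifiers above background, 2.55% were higher and 2.88% were lower. The counts of the Sp list and of the pluripotency list rest on few genes.

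The lists of LIF receptor and Stat3 genes, of Klf partners and of ubiquitin ligases held no call. With 5.42% of all identifiers past the limit, lists of this size would hold few. Of 12 listed genes of the LIF receptor, its kinases, Stat3 and Stat3 targets, 10 were above background and 0 passed the limit. Their log2 ratios ran from -0.34 (Lifr, a receptor chain) to 0.18 (Socs3, a feedback inhibitor), with a median of 0.05. Other Stat3 targets named in the study were counted in other lists. Of these, Klf4 lay inside the limit, and Tfcp2l1 and Sp5 passed it as higher with CHIR. Of 11 corepressors and coactivators that Klf proteins bind, 10 were found on the array, 8 were above background and 0 passed the limit. In this list 7 of the 8 had the lower signal with CHIR, with a median of -0.09. Over all identifiers above background the median was -0.0029, and the median size of a log2 ratio, sign ignored, was 0.136. The count of 7 rests on few genes. Ctbp2, a partner of Klf3, had 1758 in LIF and 1483 in LIF plus CHIR (log2 ratio -0.25), and Sin3a, the partner of Klf9, Klf13 and Klf16, had 4926 and 4408 (log2 ratio -0.16). Of 5 ubiquitin ligases that target Klf proteins, 3 were above background and 0 passed, with ratios from -0.15 (Smurf1) to 0.05 (Fbxw7).

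**Figure D3:**
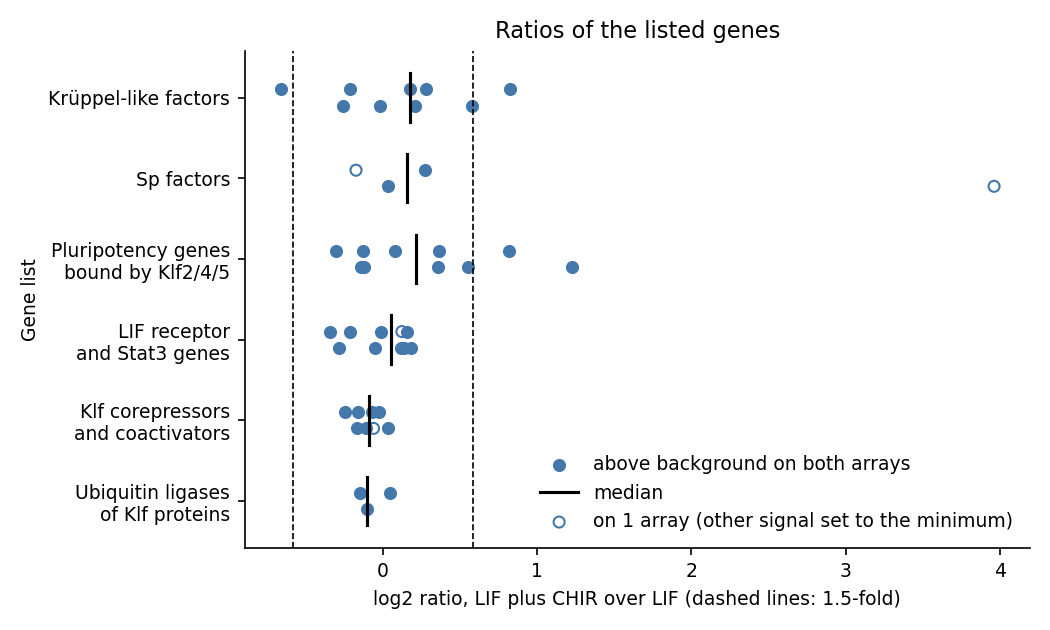
The log2 ratio of LIF plus CHIR over LIF of each gene above background on at least 1 array, by gene list. Filled circles are genes above background on both arrays, open circles genes with 1 signal set to the minimum, bars list medians and dashed lines 1.5-fold. The Klf genes spread from -0.66 to 0.83. The listed LIF and Stat3 genes, Klf partners and ubiquitin ligases lie inside the limit, as do all but 5.42% of all identifiers. Sp5 and Tfcp2l1, also Stat3 targets in the study, are shown in other lists.

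The identity of the cells and of the treatment was checked on the same arrays. Axin2, a feedback target of Wnt/β-catenin signaling, had 314 in LIF and 1178 in LIF plus CHIR, the higher value in the sample labelled as treated. Of 10 mESC markers, 9 were above background on both arrays, and Tdgf1 was below it on both. Fgf4 was the only marker past the limit, with 713 in LIF and 430 in LIF plus CHIR. Of 6 fibroblast markers, Thy1 alone was above the minimum (222 and 225), with the 3 collagen genes, Lum and Dcn below it on both arrays. The signals of the list summed to 226 in LIF and 209 with CHIR. These sums include signals below 0, and Thy1 itself was not lower with CHIR. Of 5 primitive endoderm markers, Sox7 alone passed the minimum, in LIF plus CHIR, with signals of 45.9 in LIF and 59.0 in LIF plus CHIR. This list summed to 121 in LIF and 106 with CHIR, and its other genes were below the minimum on both arrays. Of 5 trophoblast markers, Cdx2 alone passed it, in LIF plus CHIR. Its signals were 23.6 and 93.5, and against the minimum of the LIF array it was at least 1.80-fold higher, past the limit. The trophoblast sums of 5.6 and 104.9 include signals below 0. Besides Cdx2 they include Eomes, at -3.90 in LIF and 27.2 with CHIR, which was below the minimum on both arrays. Whether such cells had a part in the Klf values was not tested.

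The choice of background correction mattered most for Klf7. With a normexp correction that used every identifier for its fit, and a background SD of 588 in LIF and 586 in LIF plus CHIR, the log2 ratio of Klf7 moved from -0.66 to -0.15 and that of Klf3 from 0.21 to 0.07. With the same correction fitted on identifiers that appear to have 1 probe (SD 15.4 and 15.3), the calls of Klf2 and Klf7 held, with Klf7 at -0.63. The fit on every identifier also used combined detection p-values, which can be high for bright identifiers. Klf2 lay between 0.81 and 0.95 and Klf4 between 0.56 and 0.58 over all alternatives that gave them a value.

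**Figure D4:**
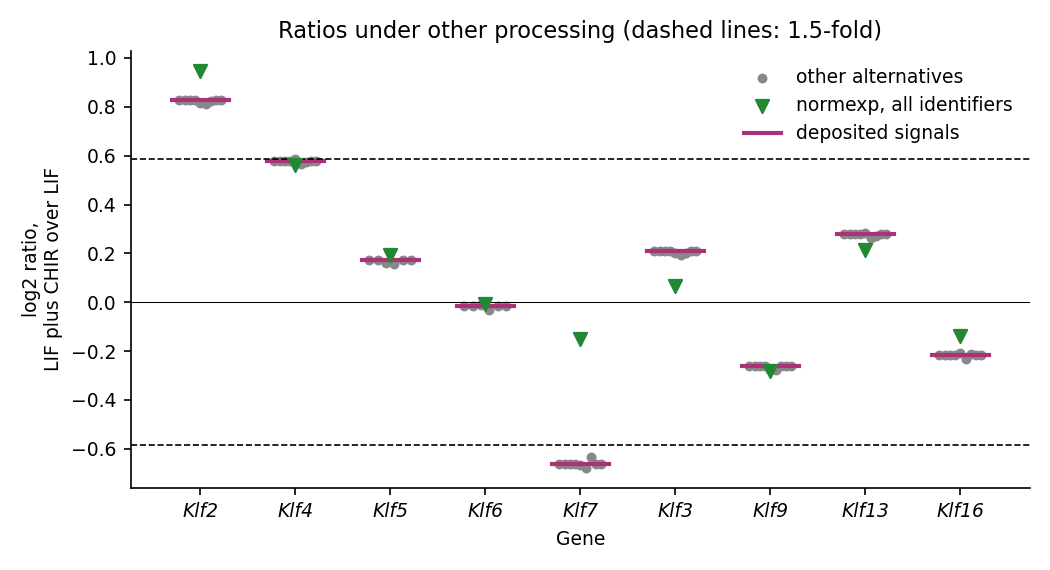
The log2 ratio of each measured Klf gene from the deposited signals (bars), under a normexp correction fitted on all identifiers (triangles) and under the other processing alternatives (dots), with dashed lines at 1.5-fold. Klf2 stays above the upper line and Klf4 stays just below it. Klf7 lies below the lower line except under the normexp correction fitted on all identifiers, where it is inside the limit at -0.15.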

How the data were processed

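Total RNA from the mESC cultures, LIF or LIF plus CHIR, was labelled with biotin and hybridized to an Illumina mouse beadchip, with 1 array per condition. Samples were grouped by their titles. The authors deposited a linear signal intensity for each of 30774 identifiers and array, background-subtracted and with nearly equal distributions on the arrays (95th percentile 3093 in LIF and 3077 in LIF plus CHIR). The software, the normalization and the way probes were combined are not given in the sources used here. Each signal came with a detection p-value, likewise deposited by the authors. A second deposited table of 11702 identifiers held the same values (0 differed) and lacked Klf5, Klf6 and Klf10. Its name says normalized, and that of the table used here says non-normalized. The number of sample columns left unused was 0.

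Log2 ratios were calculated in Python 3.11.15 (numpy 2.4.6, pandas 2.3.3), and plots were drawn in matplotlib 3.10.9. An identifier counted as measured by 1 probe (23264 of them) when its detection p-values were whole multiples of 1 over 936, within 0.001 of a step. A p-value of 0 on both arrays, as for 6 Klf genes, does not show the number of probes. Signals under the minimum were raised to it. The signal rule replaced a detection p-value because combined p-values can be high for bright identifiers. The Klf genes and all gene lists were chosen with earlier results of these data known. The named genes were the Klf genes, genes of the other lists past 1.5-fold, Axin2 and the cell markers, and others were named after their values were seen. List genes were matched by symbol, older symbol or Entrez number. Normexp used limma 3.58.1 in R 4.3.3 with an offset of 16. The calculation was tested on simulated data with changes larger than 1.5-fold, so the test does not bear on ratios near that limit. Promoter windows came from RefSeq (GRCm38.p6), and the array files name no genome build.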

Additional observations from a re-analysis of the deposited data

How the results depend on the processing

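No paired analysis was possible because LIF and LIF plus CHIR have 1 array each. No array was left out in turn for the same reason, and precision is limited by the number of arrays. The median log2 ratio of the measured Klf genes was 0.17 and lay between 0.07 and 0.21 over 12 alternatives, which were set with earlier results of these data known. No Klf gene changed sign. Klf5 and Klf6 had no value with a detection p-value under 0.01 or under 0.05, or in the shorter table. Klf7 had -0.15 under normexp fitted on all identifiers. At a limit of 2-fold neither Klf2 nor Klf7 was called, and at 1.2-fold Klf4 and Klf13 were called as well.

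Over all identifiers 275 were higher and 311 lower. The counts were 682 and 684 with a detection p-value under 0.05, 64 and 47 under normexp fitted on all identifiers, 70 and 51 at 2-fold, and 1250 and 1362 at 1.2-fold. Outside the Klf genes, 5 listed genes were higher and 1 was lower. With a detection p-value under 0.05, 3 were lower, and with both arrays above background, 3 were higher. Under normexp fitted on all identifiers 0 were lower, at 2-fold 3 were higher and 0 lower, and at 1.2-fold 9 were higher and 5 lower. The causes were not tested.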
